A study of Homo sapiens with 3 samples.

Results

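The nuclear-encoded genes of oxidative phosphorylation were examined in an eCLIP of mouse PXR, a method that sequences RNA crosslinked by UV light to a precipitated protein. The members were the 86 protein-coding genes on chromosomes 1 to 22, X and Y whose symbols follow the NDUF, SDH, UQCR, COX4 to COX8, ATP5F, ATP5M, ATP5P or CYC1 patterns in the RefSeq table of GRCh38.p14. They made up 86 of 20037 protein-coding genes, with 37 genes in complex I, 4 in complex II, 10 in complex III, 17 in complex IV and 18 in complex V. A peak was counted for a gene when its centre lay in the gene span, which gave the members 174 of the 21031 peaks of the list.

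All libraries came from LS174T, a human colon adenocarcinoma line, after 24 h of transfection with HA-tagged mouse Pxr, the pregnane X receptor. There were 2 replicate libraries of the PXR immunoprecipitate and 1 input library, and every one of them carried the construct. The protocol names antibodies against PXR, HA and IgG without saying which served for which library. The deposited data were 1 peak list of the immunoprecipitate, so no value below has a spread between replicates, and no difference between immunoprecipitate and input was tested. Genes are not replicates of a condition either, so complexes are compared by counts and medians without a test.

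Oxidative phosphorylation is the process by which mitochondria turn the energy of nutrients into ATP. Complexes I and II pass electrons from NADH and succinate to ubiquinone, complex III hands them to cytochrome c, complex IV gives them to oxygen, and complex V uses the proton gradient to make ATP. Most subunits are encoded in the nucleus, translated in the cytosol and imported, while a small core is encoded in mitochondrial DNA. Colon epithelium is known for its use of this pathway in burning short-chain fatty acids.

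A peak list of this kind depends on how much of each RNA the cells hold, and expression values were not used here. Whether a count reflects the level of an RNA or its contact with PXR was not tested, and in a bulk lysate fewer cells with an RNA and less RNA per cell cannot be told apart. The markers with a peak went with the label of the cells. Of 17 colon epithelial markers 15 held a peak, with a median deepest summit of 108 reads, and KRT20 and SPDEF did not. Of all coding genes 41.6% held a peak. No marker of hepatocytes (0 of 8), blood and immune cells (0 of 6), fibroblasts and endothelium (0 of 7), cardiac and skeletal muscle (0 of 9) or testis (0 of 5) held one. Reads at a summit, the highest point of a peak, were recovered as whole numbers from the deposited fold and −log10 p in 21028 of 21031 peaks, among them all 174 peaks of the members. Intervals on reads are exact Poisson intervals at 95% and cover counting error only, since PCR copies are not independent molecules.

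Most nuclear OXPHOS genes held a peak. These were 71 of 86 members (82.6%, Wilson interval 73.2 to 89.1%), against 41.6% of all coding genes. The members' share was above that of other coding genes in each range of gene length. It was 75% against 22.9% under 5 kb, 85.7% against 37.3% from 5 to 20 kb, and 82.4% against 48.9% at 20 kb or more. Among the 71 members with a peak, the deepest summit per gene had a median of 30 reads, with quartiles of 22 and 48, against a median of 22 and quartiles of 13 and 36 in the 8258 other coding genes with a peak. The fold, which is the authors' ratio of the summit to its background, had a median of 8.03 over the members' peaks and 5.92 over those of other coding genes. A peak could enter the list only where reads gathered, so the medians describe members that were deep enough to be called.

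The 5 complexes differed in how many of their genes held a peak. All 10 genes of complex III did, as did 17 of 18 in complex V (94.4%, Wilson interval 74.2 to 99.0%) and 32 of 37 in complex I (86.5%, 72.0 to 94.1%). Complex IV had 10 of 17 (58.8%, 36 to 78.4%) and complex II had 2 of 4, with an interval of 15 to 85%. The members without a peak were NDUFA3, NDUFA6, NDUFB1, NDUFS7 and NDUFV2 of complex I, SDHC and SDHD of complex II, ATP5MGL of complex V, and 7 genes of complex IV that are described with their isoforms below. Depth ran in a different order. The deepest summits had a median of 50.5 reads in complex IV, 34.5 in complex III, 28.5 in complex I, and 24 in both complex II and complex V. The interval of the median was 38 to 126 reads in complex IV and overlapped those of complexes I (24 to 43), III (21 to 61) and V (16 to 48). It lay above that of complex II (16 to 32), which rests on 2 genes. Without members whose pseudogenes hold a peak, the median of complex IV was 99 reads over 5 genes.

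**Figure D1:**
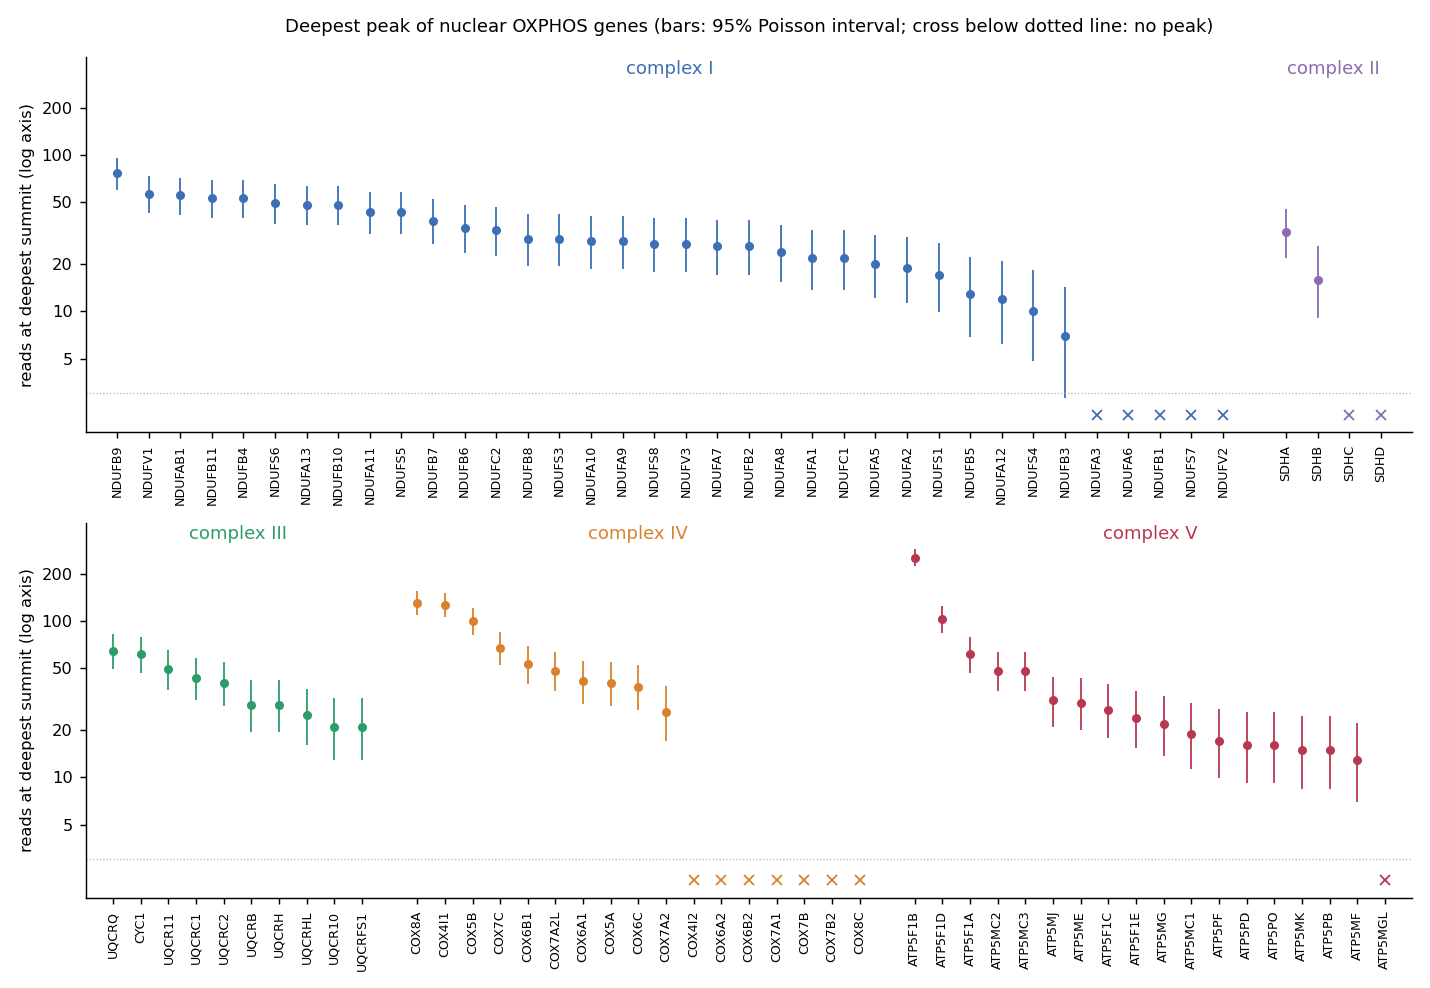
Reads at the deepest summit (log axis) of the nuclear OXPHOS genes by complex, with 95% Poisson intervals as bars and crosses for genes without a peak. ATP5F1B stands highest at 253 reads, COX8A and COX4I1 follow at 130 and 126 reads, and 7 of the crosses are in complex IV.

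**Figure D2:**
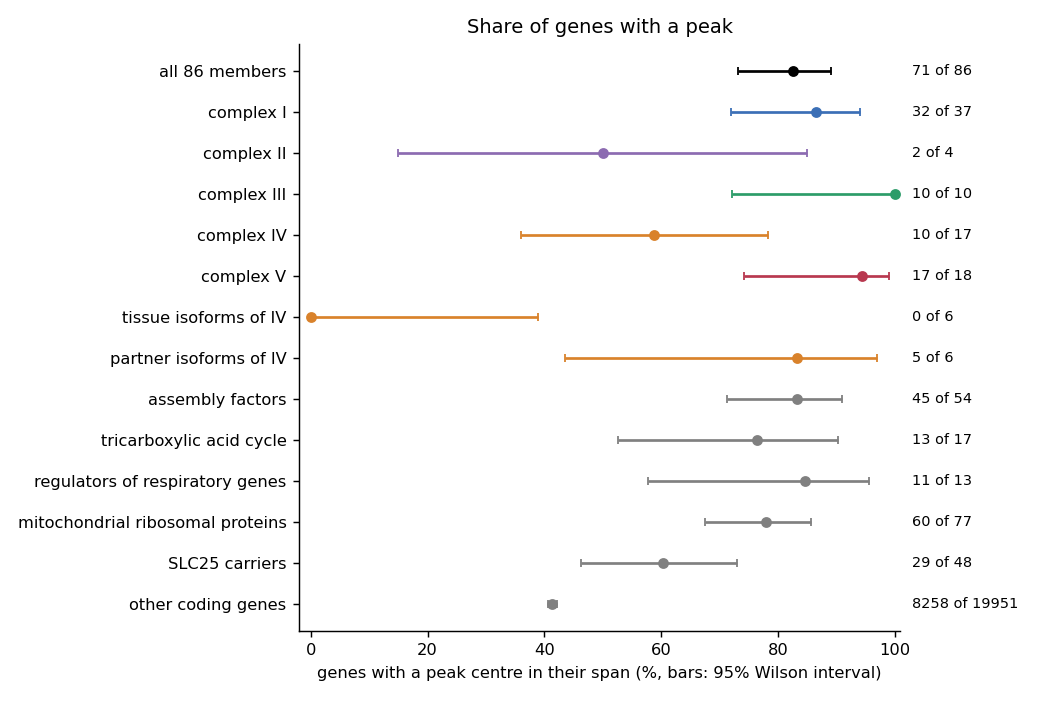
Share of genes with a peak centre in their span (%), with 95% Wilson intervals as bars and counts at the right, for the members, each complex, related gene lists and all other coding genes. All 10 genes of complex III and none of the 6 tissue isoforms of complex IV held a peak, against 41.4% of other coding genes.

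Complex V, the ATP synthase, had both the deepest member and many shallow ones. ATP5F1B, the catalytic beta subunit, held 8 minus-strand peaks over its 7810 bases on chromosome 12 (56638175 to 56645984, hg38). Their summits had 105 to 253 reads, at folds of 4.08 to 8.83. The deepest, at 56643303 to 56643876, had 253 reads (Poisson interval 223 to 286) out of 1389 in the surrounding 10 kb, and ranked 70 among the 8329 coding genes with a peak. Signal in ATP5F1B was thus spread along the gene, with 18.2% of the reads of the 10 kb under its deepest summit.

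The other subunits of the F1 sector, the part that carries catalysis and the central stalk, all held peaks. ATP5F1D, the delta subunit, had 3 peaks with 102 reads (83.2 to 124), 79 and 88 at their summits. ATP5F1A, the alpha subunit, had 5 peaks with up to 61 reads (46.7 to 78.4). ATP5F1C, the gamma subunit, had 27 reads and ATP5F1E, the epsilon subunit, 24 reads at their deepest summits. Over the 5 F1 genes the median deepest summit was 61 reads, against 18 over the 12 other complex V genes with a peak. These F1 and other values overlapped, since ATP5MC2 and ATP5MC3 reached 48 reads each.

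The membrane and stalk subunits of complex V were mostly shallow. ATP5MC1, ATP5MC2 and ATP5MC3 encode the same c subunit of the rotor ring behind different import sequences. ATP5MC2 had 48 reads (35.4 to 63.6) at a fold of 11.1, ATP5MC3 had 48 reads at 11.6, and ATP5MC1 had 19 reads (11.4 to 29.7) at 8.40. The interval of ATP5MC1 thus lay below those of the other 2 genes. ATP5MJ, a small subunit, had 31 reads at a fold of 11.4, and ATP5ME, the e subunit, had 30 at 6.43. The deepest summits of ATP5MF, ATP5PB, ATP5MK, ATP5PO, ATP5PD, ATP5PF and ATP5MG lay between 13 reads in ATP5MF and 22 in ATP5MG. ATP5PF held 3 peaks with 17, 12 and 7 reads, and the last 2 overlapped GABPA.

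Complex IV, cytochrome c oxidase, held the deepest peaks after ATP5F1B and the highest median fold of the complexes. Over peaks, the fold had a median of 10.0 in complex IV (order-statistic interval 7.66 to 15.0) and 8.67 in complex II. It was 8.33 in complex I, 7.17 in complex III and 6.62 in complex V (5.88 to 7.98). These medians and intervals count each peak of a gene separately. Of the 9 peaks in complex II 8 were in SDHA, and of the 41 in complex V 8 were in ATP5F1B. COX8A, a small subunit, lies on chromosome 11 from 63974620 to 63976543 and held 2 plus-strand peaks. The first, at 63974669 to 63974942, had 130 reads (109 to 154) out of 332 in its 10 kb, and the second, at 63976249 to 63976662, had 126 of 322. Both had a fold of 17.1, and they lay near opposite ends of the gene.

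COX4I1, a subunit with a regulatory role in the enzyme, had 4 peaks on chromosome 16 with 22, 114, 49 and 126 reads from start to end. COX5B, a zinc-binding subunit, had 99 reads (80.5 to 121) at a fold of 18.6 near its end and 50 reads near its start. COX7C had 67 reads at its start, 22 in its middle and 53 near its end. In these genes the peaks near the ends were higher than those between them, except in COX4I1, whose start peak was its lowest. COX6B1 had 53 reads, COX7A2L, a factor that joins respiratory complexes, 48, COX6A1 41, COX5A 40, COX6C 38 and COX7A2 26 at their deepest summits.

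In 5 of the 6 isoform pairs of complex IV, only the widely expressed partner held a peak. COX4I2, COX6A2, COX6B2, COX7A1, COX7B2 and COX8C are isoforms known from lung, heart and skeletal muscle or testis, and none of the 6 held a peak (0%, Wilson interval up to 39.0%). Of their 6 widely expressed partners, COX4I1, COX6A1, COX6B1, COX7A2 and COX8A held peaks, with 26 to 130 reads, and COX7B did not. The 6 tissue isoforms ran from 630 bases in COX6A2 to 174419 in COX7B2, with a median of 3271. Among other coding genes, 22.9% under 5 kb held a peak, 37.3% from 5 to 20 kb and 48.9% at 20 kb or more. Muscle and testis markers had no peak in the same list, as given above. Whether the difference within the pairs goes with tissue was not tested. Without the 6 tissue isoforms, complex IV had a peak in 10 of 11 genes (90.9%), and the members as a whole in 71 of 80 (88.8%).

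Complex III, which passes electrons to cytochrome c, held peaks in every gene. UQCRQ, a small ubiquinone-binding subunit, had 64 reads (49.3 to 81.7) at a fold of 14 and a second peak of 55 reads. CYC1, cytochrome c1, held 5 plus-strand peaks in 2450 bases, with 22 to 61 reads, which is 2.04 peaks per kb. UQCRC1, a core protein, held 6 peaks with summits of 38 to 43 reads and folds of 4.24 to 6.94, so they were nearly equal in height along the gene. UQCRC2, the other core protein, held 5 peaks with up to 40 reads, and UQCR11 had 49 reads and UQCRB 29. UQCRFS1, the Rieske iron-sulfur protein, had 1 peak of 21 reads, and UQCR10 had 2 with up to 21. UQCRH, the hinge protein, had 29 reads. UQCRHL, a gene of 276 bases that resembles UQCRH closely, had 25 reads, so which of these RNAs its reads came from is uncertain.

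Complex II, succinate dehydrogenase, showed peaks in its catalytic genes and none in its membrane anchors. SDHA, the flavoprotein, held 8 plus-strand peaks on chromosome 5 with 16 to 32 reads, the highest fold of 12.4 at its start and 11.1 at 256370 to 256680. SDHB, the iron-sulfur subunit, held 1 peak of 16 reads at a fold of 8.67. SDHC and SDHD, the anchors, had no peak. With 4 genes, complex II supports no statement on its share beyond these counts. Near-identical copies of SDHA exist, and 2 of them, SDHAP1 and SDHAP4, held peaks of 10 to 16 reads.

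Complex I, the NADH dehydrogenase, held peaks in 5 of its 7 catalytic core genes and 27 of its 30 accessory genes. NDUFB9, an accessory subunit of the membrane arm, was the deepest, with 76 reads (59.9 to 95.1) at a fold of 20.3. A second NDUFB9 peak had 55 of the 82 reads of its 10 kb and a fold of 21.2, the highest of any member. NDUFV1, which binds NADH, held 6 peaks with 37 to 56 reads and folds of 3.26 to 4.87, and each summit held at most 10.5% of the reads in its 10 kb. The deepest NDUFV1 summit and the second NDUFB9 summit thus had nearly the same reads at folds of 4.87 and 21.2.

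Other deep genes of complex I were accessory. NDUFAB1, the mitochondrial acyl carrier protein, had 55 reads at a fold of 14.4. NDUFB11 and NDUFB4, both of the membrane arm, had 53 reads each, at folds of 18.0 and 16.7. NDUFS6 had 49 reads, NDUFA13 and NDUFB10 had 48 each, and NDUFA11 and NDUFS5 had 43 each. NDUFB6 had 34 of the 51 reads in its 10 kb at a fold of 17.3. NDUFA8, NDUFA9, NDUFA10, NDUFB7, NDUFC1 and NDUFV3 held 3 peaks each, with deepest summits of 22 to 38 reads. NDUFC2 had 1 peak of 33 reads at a fold of 15.7. NDUFB8, NDUFS3, NDUFS8, NDUFA7, NDUFB2, NDUFA1, NDUFA5, NDUFA2 and NDUFS1 held 1 or 2 peaks each, with deepest summits between 29 reads in NDUFB8 and 17 in NDUFS1. The shallowest were NDUFB3 with 7 reads, NDUFS4 with 10, NDUFA12 with 12 and NDUFB5 with 13. Over peaks, the median fold was 8.67 in accessory genes (interval 8.25 to 9.87) and 5.28 in core genes (4.34 to 9.06), and these intervals overlapped. Of the 14 peaks in core genes, 6 were in NDUFV1.

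Several peaks in 1 gene were common. Of the members, 26 of 86 (30.2%) held 3 or more peaks, against 13.7% of all coding genes. The most were 8, in ATP5F1B and SDHA, then 6 in NDUFV1 and UQCRC1 and 5 in ATP5F1A, CYC1 and UQCRC2. A further 28 members held 2 peaks and 17 held 1.

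Gene strand was read from the RefSeq promoter table, which matched 69 of 86 members. Among the 17 without an entry were NDUFB9, CYC1, ATP5F1B, ATP5F1D and ATP5MC3. In genes of known strand, 135 of 139 member peaks lay on the gene's own strand (97.1%, Wilson interval 92.8 to 98.9%), against 94.3% in other coding genes. Of the 4 on the opposite strand, 3 lay where a member overlaps a neighbour, NDUFC1 with NAA15 (20 reads), NDUFB11 with RBM10 (23 reads) and ATP5PF with GABPA (12 reads). The last was a peak of 4 reads inside NDUFS4, 200 bases wide, with no other gene at its centre. In all, 22 of the 174 peaks had their centre in another gene of any class as well, among them readthrough genes that contain NDUFC2, ATP5MF and ATP5F1E.

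**Figure D3:**
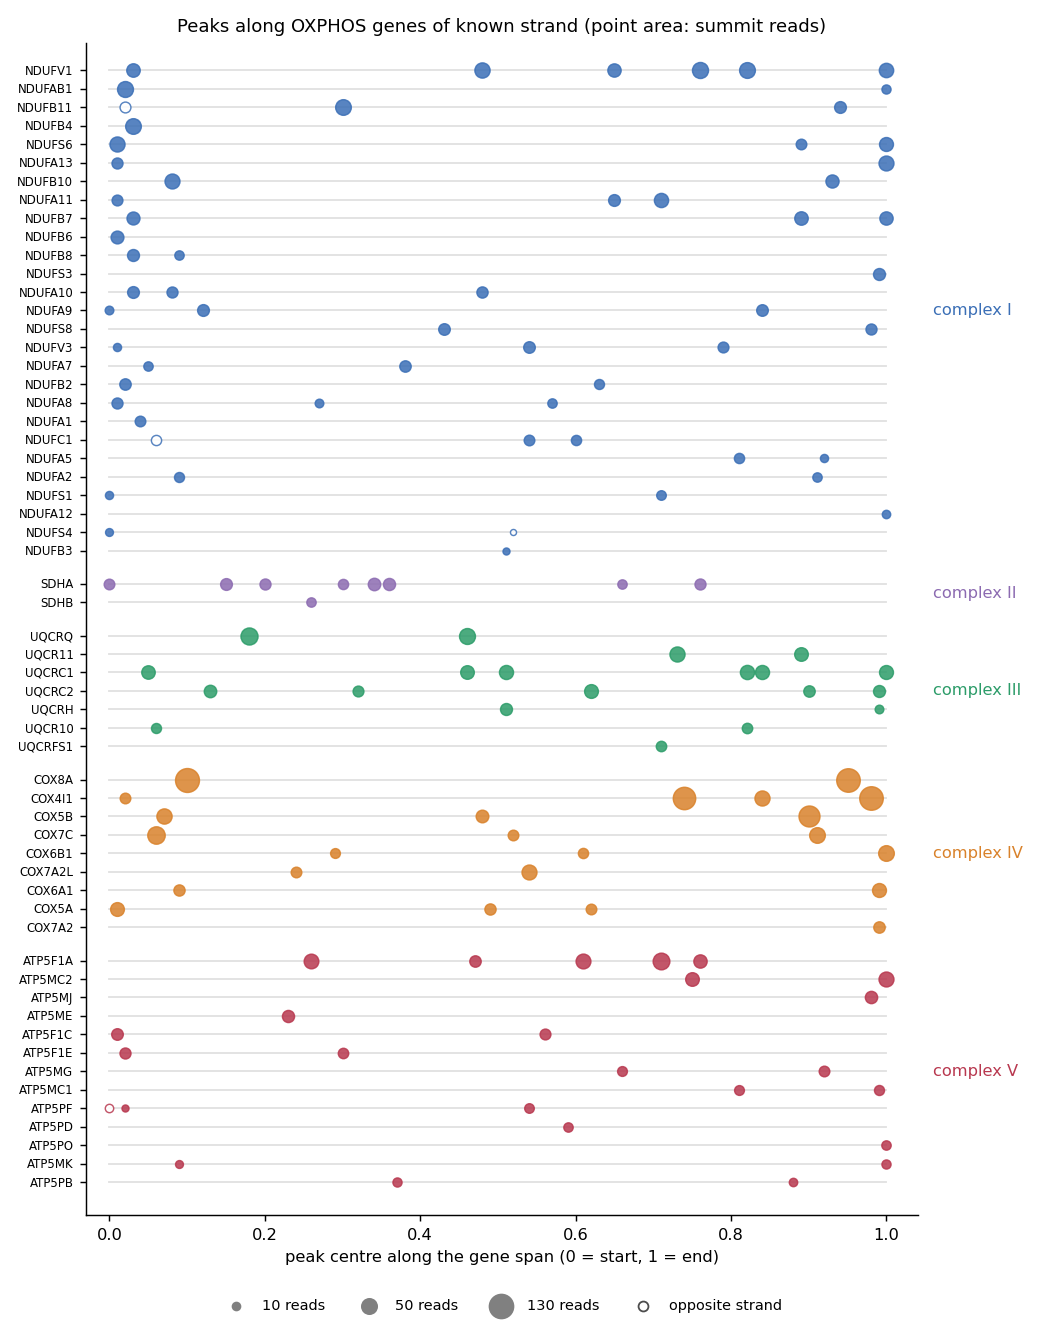
Peak centres along the span of each OXPHOS gene of known strand that held a peak, from its start (0) to its end (1), with point area for summit reads and open points for the opposite strand. In complex I, 39.7% of the peaks on the gene strand lie in the first 0.2 of the span, against 16% in complex V, and 4 of the 139 points are open.

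Peaks on the gene strand lay at both ends and in the body of the genes. The first 0.2 of the span held 29.6% of member peaks (Wilson interval 22.6 to 37.8%), against 33.4% in other coding genes. The part between held 40% (32.1 to 48.4%), against 33%, and the part past 0.8 held 30.4% (23.2 to 38.6%), against 33.6%, so each share of other genes lay within the members' interval. In members the fold had a median of 9.48 in the first stretch, 7.0 in the middle and 8.33 in the last, with medians of 25.5, 25.5 and 29 reads. In other coding genes the medians of fold were 7.01, 5.66 and 5.41. By complex, the first stretch held 39.7% of peaks in complex I (28.1 to 52.5%) and 16% in complex V (6.4 to 34.7%), and these intervals overlapped.

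Peaks at the very start of the gene were frequent in complexes I and IV. A start peak was defined as one on the gene strand whose upstream edge lay within 100 bases of the annotated start, and an end peak as one whose downstream edge lay within 100 bases of the span's end. A start peak was found in 30 of 69 members (43.5%, Wilson interval 32.4 to 55.2%), against 14.6% of all coding genes of known strand. These were 19 of 32 genes in complex I (59.4%, 42.3 to 74.5%), 7 of 14 in complex IV, 1 of 3 in complex II, 1 of 7 in complex III and 2 of 13 in complex V (15.4%, 4.33 to 42.2%). The interval of complex I began at 42.3% and that of complex V ended at 42.2%, and no test between complexes was made. Among genes with any peak on their strand, the share was 51.7% in members and 34.9% in other coding genes. An end peak was found in 15 of 69 members (21.7%, 13.6 to 32.8%), against 6.42% of all coding genes, and 6 members had both. Downstream edges of these end peaks lay at a median of -76 bases before the span's end, where a minus sign means past it. In other coding genes the median was -9. Edges further past the end were not counted. In complex IV these were in COX8A (-119), COX6A1 (-126) and COX6B1 (-110). Complex I had them in NDUFA13 (-115), NDUFS6 (-109), NDUFB10 (-107) and NDUFB7 (-106), and complex V in ATP5MC2 (-119) and ATP5MC1 (-106). The counts of end peaks and of members with both thus depend on the cutoff of 100 bases, in complexes I, IV and V.

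**Figure D4:**
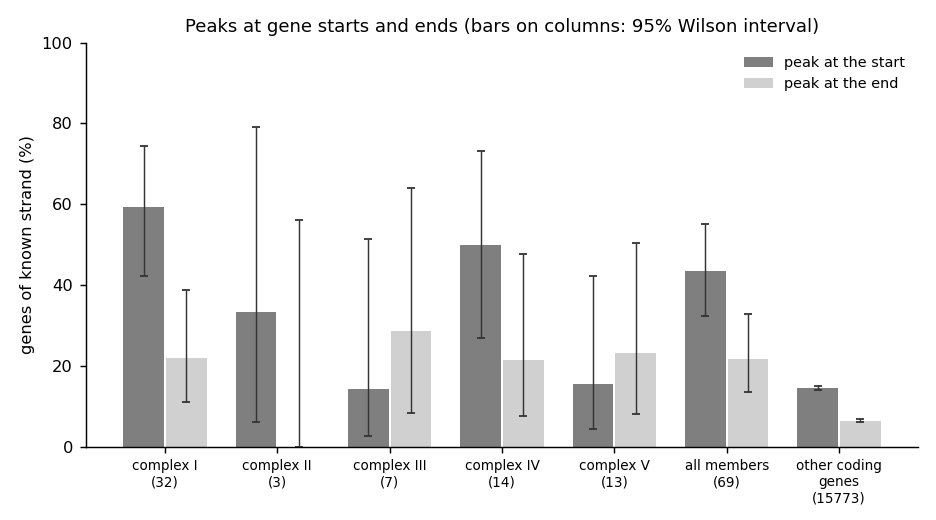
Share of genes of known strand (%) with a peak edge within 100 bases of the annotated start or of the span's end. Complexes are shown apart, with 95% Wilson intervals and gene numbers in brackets. Start peaks reached 59.4% in complex I and 15.4% in complex V, against 14.4% in other coding genes.

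The start peaks began a short way inside the gene. Their upstream edges lay 4 to 90 bases after the annotated start, with a median of 42.5 bases and quartiles of 28 and 57, against a median of 56 and quartiles of 34 and 76 in other coding genes. No start peak of a member began upstream of the start. The deepest were COX8A with 130 reads, COX7C with 67, NDUFAB1 with 55, and NDUFB4 and NDUFB11 with 53 each. Start peaks of members had a median fold of 10.6, against 8.51 in other coding genes, and a median of 25.5 reads against 22.

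The 6 members whose start peaks began closest to the start are shown with the edges of their peaks. These are edges of called peaks, at least 200 bases wide in this list, and not ends of reads. Each line gives 50 bases before and 30 bases after the annotated start, from RefSeq (GRCh38.p14), read 5′ to 3′ on the gene strand. Capitals mark bases inside the peak.
SDHA (chr5:218270-218349, plus strand): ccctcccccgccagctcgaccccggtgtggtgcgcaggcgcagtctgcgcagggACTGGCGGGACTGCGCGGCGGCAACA
COX4I1 (chr16:85799645-85799724, plus strand): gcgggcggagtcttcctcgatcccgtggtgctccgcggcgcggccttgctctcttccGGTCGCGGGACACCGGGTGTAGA
COX7A2L (chr2:42361188-42361267, minus strand): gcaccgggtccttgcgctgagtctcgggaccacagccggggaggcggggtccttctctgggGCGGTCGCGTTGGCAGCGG
NDUFB2 (chr7:140696658-140696737, plus strand): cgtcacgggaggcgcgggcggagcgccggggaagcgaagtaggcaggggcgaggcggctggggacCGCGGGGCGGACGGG
NDUFB7 (chr19:14572037-14572116, minus strand): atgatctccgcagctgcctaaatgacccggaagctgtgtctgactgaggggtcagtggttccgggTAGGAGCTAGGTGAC
COX6A1 (chr12:120438063-120438142, plus strand): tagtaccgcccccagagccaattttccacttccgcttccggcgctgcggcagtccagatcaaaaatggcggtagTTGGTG

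In SDHA the peak began at base 5 of the annotated RNA, in COX4I1 at base 8, in COX7A2L at base 12, in NDUFB2 and NDUFB7 at base 16 and in COX6A1 at base 25. Their start peaks had 22, 22, 22, 26, 35 and 25 reads in that order. The annotated start lay at the end of the gene span in 65 of the 69 members.

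The promoters of nuclear OXPHOS genes are known for sites of the transcription factors NRF1, GABPA and YY1, so 4 motifs were searched on both strands from 250 bases before to 50 bases after each start. The NRF1 motif GCGCNTGCG was found in 23 of 69 member promoters (33.3%, Wilson interval 23.4 to 45.1%), against 11% of 15842 coding promoters. The GABPA motif CCGGAAG was found in 20 (29.0%, 19.6 to 40.6%), against 14.2%. The YY1 motif AAGATGG was found in 16 (23.2%, 14.8 to 34.4%), against 6.40%. The CCAAT box, with the letters CCAAT, was found in 24 (34.8%, 24.6 to 46.6%), against 36.4%. None of these motifs contains another. A match is a description of letters and not of binding, and median GC content was 61.3% in member promoters and 62.7% in all coding promoters.

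Each of the 4 motifs had a lower share in members with a start peak than in members without one, and these differences were not tested. The NRF1 motif was in 9 of 30 members with a start peak and 14 of 39 without one, the GABPA motif in 8 of 30 and 12 of 39, the CCAAT box in 8 of 30 and 16 of 39, and the YY1 motif in 3 of 30 and 13 of 39. Shown here are members with deep or high peaks, all but UQCRQ with a start peak, unlike most members that carry these motifs. Each line gives 50 bases on the gene strand from RefSeq, with the motif, or its reverse complement, in capitals.
NDUFB4, NRF1 (chr3:120596157-120596206, plus strand): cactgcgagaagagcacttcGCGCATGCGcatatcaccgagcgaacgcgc
NDUFA8, NRF1 (chr9:122159754-122159803, minus strand): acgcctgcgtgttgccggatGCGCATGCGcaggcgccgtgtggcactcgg
ATP5F1C, NRF1 (chr10:7788135-7788184, plus strand): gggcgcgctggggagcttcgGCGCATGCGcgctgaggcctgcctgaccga
COX8A, GABPA (chr11:63974582-63974631, plus strand): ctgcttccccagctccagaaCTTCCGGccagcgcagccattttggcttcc
COX5B, GABPA (chr2:97646005-97646054, plus strand): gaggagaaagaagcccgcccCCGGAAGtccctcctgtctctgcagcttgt
UQCRQ, GABPA (chr5:132866568-132866617, plus strand): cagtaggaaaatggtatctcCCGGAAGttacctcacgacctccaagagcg
COX7C, YY1 (chr5:86617913-86617962, plus strand): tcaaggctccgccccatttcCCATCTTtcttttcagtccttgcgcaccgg

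In this set, NDUFA8 had 24 of the 33 reads of its 10 kb in a start peak at a fold of 15.1, and its NRF1 motif began 4 bases before the start. COX8A, the deepest gene of complex IV, and COX5B carried the GABPA motif 18 and 37 bases before the start. UQCRQ, the deepest gene of complex III, carried it 54 bases before the start.

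Genes that serve the same pathway also held peaks. Of all coding genes 41.6% held a peak, and of other coding genes of 20 kb or more 48.9% did. The subunits had a median deepest summit of 30 reads (27 to 41), against 16 reads (14 to 19) in the assembly factors, which build the complexes without being part of them. Of 54 assembly factors 45 held a peak (83.3%, Wilson interval 71.3 to 91.0%). TTC19, a complex III factor, had 57 reads, ATPAF1, a complex V factor, 46 and COA4, a complex IV factor, 38, equal to COX11. Of 17 genes of the tricarboxylic acid cycle 13 held a peak (76.5%), with a median of 27 reads. They were led by MDH2, malate dehydrogenase, with 69 reads and OGDH, of the oxoglutarate dehydrogenase complex, with 42. Of 13 regulators of respiratory gene expression 11 held a peak (84.6%), with a median of 20 reads. They were led by the nuclear receptor ESRRA with 56, the coactivator PPRC1 with 45 and the transcription factor YY1 with 42.

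Among groups of similar genes, many genes held a peak as well, against 41.6% of all coding genes. Of 77 mitochondrial ribosomal protein genes 60 held a peak (77.9%, Wilson interval 67.5 to 85.7%), with a median deepest summit of 25.5 reads. Of 48 SLC25 carriers, which move metabolites across the inner mitochondrial membrane, 29 held one (60.4%, 46.3 to 73.0%), with a median of 22 reads. The cytosolic ribosomal proteins, at 85.1%, had a median of 94.5 reads. No test between these groups was made.

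Of the 13 subunits encoded in mitochondrial DNA, 4 held a peak centre, CYTB of complex III and ND4, ND5 and ND6 of complex I. The peaks of the nuclear members had 4 to 253 reads and folds of 3.17 to 21.2, against 289 to 773 reads and folds of 1.46 to 4.02 in these 6 mitochondrial peaks. Of the 6, 5 lay on the minus strand, which is the coding strand of ND6 and the opposite one for CYTB, ND4 and ND5. The mitochondrial chromosome held 14 peaks in all.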

How the data were processed

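The labels describe 2 immunoprecipitate libraries and 1 input library, and the deposited data used here are 1 peak list. Tools named in the submitters' processing notes are cutadapt, BWA and MACS2, and the build is hg38. Their versions, their settings and the use of both replicates for the list are not stated there. In all 21031 peaks the deposited score is 10 times the −log10 q without its decimals. The fold deposited by the authors is the ratio of summit to background after adding 1 to each, and the −log10 of the p-value and of the q-value, also deposited, are those of the peak caller. These are the authors' values. The summit offset, in bases, is deposited as well.

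Reads at a summit were recovered as the whole number k whose background b, set by the fold, yields the deposited −log10 p under a Poisson model within 0.0001 plus 1e-05 of its value. Multiplied by 50, b is the number of reads in 10 kb for a 200 base background, and it was whole within 0.05 in 173 of 174 member peaks. The recovery was tested on simulated data. Genes, spans and promoters came from RefSeq (GRCh38.p14, which shares coordinates with hg38). Medians have order-statistic intervals and shares have Wilson intervals, both at 95%. Where a median rests on too few genes for that, as on the 2 of complex II, the range is given instead. No test was made, because no values of single libraries were used. Python 3.11.15, numpy 2.4.6, scipy 1.17.1 and pandas 2.3.3 were used.

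Members and lists were chosen with earlier results of these data known. Values were given for the 6 deepest genes of each complex, further genes with 3 or more peaks or among the 5 highest folds, the isoform pairs and the c subunit genes. The lists of ribosomal proteins and SLC25 carriers, the start and end peaks, the promoter motifs and the length ranges were chosen after seeing the data, as were the shallowest members and the remaining genes named. Alternatives changed which peaks or members counted. A few single genes are counted in the totals but not reported here.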

Additional observations from a re-analysis of the deposited data

How the results depend on the processing

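The list has no replicates, so the limits concern how peaks were counted. Over 10 alternative settings, 142 of 149 values stayed within the 95% interval of the value reported, among them the share of members with a peak. For the median depth of complex II, the range of its 2 genes with a peak stood in for that interval. Some of these intervals are wide. Without members whose pseudogenes hold a peak, a setting chosen after seeing the data, complex IV had a median depth of 99 reads over 5 genes, against 50.5 as reported, and a peak in 41.7% of its genes, against 58.8%. In that setting complex II had a peak in 1 of 3 genes (33.3%), with 16 reads. The share of complex V with a peak was 66.7% with only peaks in 1 gene, 72.2% with peaks below the median −log10 q left out, 100% with only peaks on the gene strand (13 of 13 genes of known strand) and 100% without UQCRHL and ATP5MGL, against 94.4% as reported. Complex IV had 90.9% without its 6 tissue isoforms, also a setting chosen after seeing the data, against 58.8% as reported. The share of peaks on the gene strand was 99.2% with only peaks in 1 gene, and the median fold was 8.77 with those below the median −log10 q left out. Each of these changes follows from which peaks or genes the setting leaves in. By the highest fold per gene in place of reads, complex IV again had the highest median, at 15.3, and complex V the lowest, at 8.40. No paired analysis was possible because the list carries no values of single libraries. Moving NDUFA4 to complex IV was not run, since the RefSeq table lists that gene as COXFA4, which the symbols do not take in. Of the members' peaks, 4 had under 10 reads, and a member without a peak may lie below the depth needed for a call.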

Other observations

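Pseudogenes named for OXPHOS genes held a few shallow peaks. Of 202 pseudogenes whose symbol is that of a member followed by P and a number, 20 held a peak (9.90%, Wilson interval 6.5 to 14.8%), against 5.01% of 17051 pseudogenes in the table. Their 23 peaks named 18 parent genes, and 17 of these parents held a peak themselves. The exception was NDUFV2, which had no peak, while NDUFV2P1 held 2 minus-strand peaks of 9 and 7 reads. The deepest were COX6A1P2 with 35 reads (24.4 to 48.7) at a fold of 19.6, ATP5F1EP2 with 25 reads at 16.0 and COX7A2P2 with 20 reads at 14.8. Under 20 reads lay 20 of the 23 peaks. Some of the 23 also lay in another gene, as COX6B1P5 (18 reads) in HAUS3 and POLN, and UQCRFS1P1 (14 reads) in ENTHD1. Pseudogenes and parents resemble each other closely, so which copy, or which overlapping gene, these reads came from is uncertain. How such reads were placed was not tested.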
